A study of Mus musculus with 12 samples.

Results

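The comparison described here is that of FGF23 with vehicle in wild-type mouse kidney. Its members were set by their labels, with earlier results of these data known. They are 8 of the 12 arrays of the series, 4 titled as wild type with FGF23 and 4 as wild type with vehicle. All 12 came from kidney RNA of female mice, measured on Affymetrix whole-transcript arrays. The treated mice, strain C57BL/6, received 500 ng per g body weight of recombinant FGF23 into the peritoneum. The vehicle mice, also C57BL/6 and wild type, received 100 µl of saline by the same route. The remaining 4 arrays came from vehicle-injected KL null mice, which lack klotho and carry the strain label 129/SvEv/C57BL/6. The protocol nevertheless calls the wild-type animals littermates of the KL null ones, so the labels leave the difference in strain unsettled. Mice of every group had been kept on standard diet for 5 to 8 weeks and were killed 1 hour after the injection. The labels number the replicates but do not say that each is a separate mouse, so p-values measure only the spread between these samples.

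FGF23 is a hormone secreted by bone cells. In the kidney it acts through FGF receptors together with the co-receptor klotho, and its known effects are less phosphate reabsorption in the proximal tubule and less synthesis of active vitamin D. Ligand-bound FGF receptors switch on the RAS, RAF and ERK kinase cascade, which within minutes induces immediate early genes, and later the phosphatases and Sprouty proteins that damp the cascade again.

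The stretches before the start sites of 4 genes that rose after FGF23 are shown, because binding sites for early transcription factors are often found there. They are the 250 bases upstream of the RefSeq start in build GRCm38.p6, written 5′ to 3′ on the strand of the gene, and the genes were chosen after their values were seen. Capitals mark matches on either strand to 6 motifs. These were the serum response element core known as the CArG box, the cyclic AMP element CRE (TGACGTCA), AP-1 (TGANTCA), ETS (CCGGAAGT), EGR (GCGNGGGCG) and the E-box (CACGTG). Dusp6 lies at chr10:99262981-99263230 (+ strand), Junb at chr8:84978749-84978998 (- strand), Zfp36 at chr7:28379229-28379478 (- strand) and Chka at chr19:3851523-3851772 (+ strand).
Dusp6: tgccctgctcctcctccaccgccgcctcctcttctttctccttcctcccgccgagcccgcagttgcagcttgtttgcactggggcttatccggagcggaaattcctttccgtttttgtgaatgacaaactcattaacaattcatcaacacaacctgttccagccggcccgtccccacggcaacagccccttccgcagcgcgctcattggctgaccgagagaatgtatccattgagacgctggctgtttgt
Junb: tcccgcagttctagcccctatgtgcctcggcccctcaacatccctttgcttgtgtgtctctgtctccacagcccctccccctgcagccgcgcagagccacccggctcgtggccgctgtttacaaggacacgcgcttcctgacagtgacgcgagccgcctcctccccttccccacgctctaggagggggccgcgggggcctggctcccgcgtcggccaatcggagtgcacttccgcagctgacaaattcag
Zfp36: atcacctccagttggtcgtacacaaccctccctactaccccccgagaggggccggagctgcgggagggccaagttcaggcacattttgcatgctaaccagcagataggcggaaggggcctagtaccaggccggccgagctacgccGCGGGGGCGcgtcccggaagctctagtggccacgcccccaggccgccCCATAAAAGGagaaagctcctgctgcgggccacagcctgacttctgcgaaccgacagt
Chka: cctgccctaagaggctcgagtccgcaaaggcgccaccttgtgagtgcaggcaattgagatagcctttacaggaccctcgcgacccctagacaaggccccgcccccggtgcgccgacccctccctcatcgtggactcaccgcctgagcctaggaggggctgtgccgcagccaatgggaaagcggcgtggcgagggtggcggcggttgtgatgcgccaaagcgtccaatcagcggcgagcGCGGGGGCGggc
In the Zfp36 stretch a CArG box lies 58 to 49 bases before the start and an EGR match 105 to 97 bases before it. In that of Chka an EGR match lies 12 to 4 bases before the start. The Dusp6 and Junb stretches hold none of these 6 letter patterns in this window. Of the 17 genes called after FGF23, 11 had an upstream sequence in the RefSeq table, against 15614 of all genes measured. Egr1, Hbegf, Spry4, Ier2, Bhlhe40 and Dusp4 had no usable one, so the counts below do not cover them. The EGR pattern was in 3 of the 11 (Chka, Zfp36 and Dnajc17) and in 7.93% of all, the CArG box in 1 (Zfp36) and in 1.45%, and the CRE in 0 and in 2.33%. AP-1 was in 1 (Ddit3) and in 7.12%, ETS in 1 (Ddit3) and in 4.51%, and the E-box in 1 (Rbm3os) and in 8.11%. These matches are a description of letters and not of bound sites.

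The deposited values are log2 RMA signals per probe set, so a difference of 1 is a doubling. Each of 19938 genes is represented by 1 probe set. The nephron markers Umod (12.72 with vehicle and 12.66 with FGF23) and Slc12a1 (12.19 and 12.23) of the thick ascending limb, Slc34a1 of the proximal tubule (12.93 and 12.88) and Aqp2 of the collecting duct (9.68 and 9.70, means of 4) were all present, as the kidney label says. The arrays were not alike in spread: the standard deviation of all log2 values was 2.23 to 2.275 on the vehicle arrays, 2.248 and 2.233 on FGF23 replicates 3 and 4, and 2.166 and 2.167 on FGF23 replicates 1 and 2. The values of FGF23 arrays are therefore given singly below. For genes named by the rule set out under processing, differences that moved by over 1.5 times without replicates 1 and 2 are also given without them. For genes named after their values were seen this was not always done. Vehicle replicate 4 lay with FGF23 replicates 1 and 2 for several variable genes, such as Ifi44l and Serpina6, and whether it differs from its label in other respects was not tested. The number of arrays limits the precision.

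Injection of FGF23 raised a small set of early genes within 1 hour, led by Egr1, Hbegf, Dusp6 and Zfp36, each by more than 2-fold. A gene was called when its limma adjusted p, taken over all 19938 genes, was below 0.05. This held for 17 genes (0.0853% of those tested), of which 16 were higher after FGF23 (0.0802%) and 1 was lower (0.00502%). In all 17 the 4 FGF23 arrays lay on one side of the 4 vehicle arrays. The genes were called on these same arrays, so this separation is no further evidence. Over all genes 4.09% were separated upward and 2.92% downward. The called log2 differences ran from 0.485 to 3.18 in size, and 13 of the 17 were below 1. With each array centred on its own median the calls were 5 higher and 1 lower. The count was 8, 5, 4 and 8 without FGF23 replicates 1 to 4, 7, 4, 4 and 11 when a vehicle array was left out (replicates 1 to 4 in order), and 9, 10, 5 and 14 when a KL null array was. In a bulk kidney sample, a change in the number of cells of a type and a change in RNA per cell cannot be told apart.

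**Figure D1:**
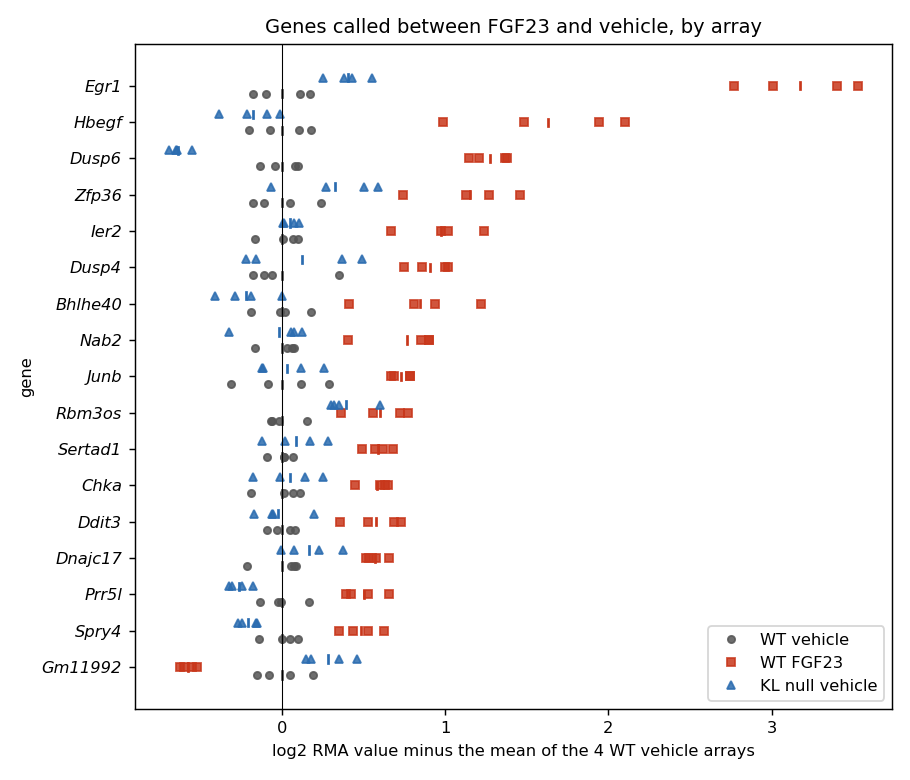
Log2 value of each called gene on each array, minus the mean of the 4 wild-type vehicle arrays (horizontal axis), with 1 line per gene (vertical axis); circles are vehicle, squares FGF23, triangles KL null vehicle, and short vertical bars group means. The FGF23 squares of Egr1 lie near 3 with a wide scatter, those of Dusp6 close together above 1, and the FGF23 and vehicle arrays of all 17 genes do not overlap.

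Among the immediate early transcription factors Egr1, Nab2 and Junb rose. Egr1, a zinc finger factor that ERK signalling induces through serum response elements, was at 6.33, 6.27, 5.98 and 6.06 on the vehicle arrays and at 8.93, 9.17, 9.56 and 9.69 on the FGF23 arrays. Every treated array lay more than 2 log2 units above every vehicle array. The difference was 3.18 (SE 0.144, 95% interval 2.87 to 3.48, adjusted p = 1.55e-08), a 9.05-fold rise. Nab2, a corepressor that binds EGR proteins and limits their activity, was at 7.89, 7.93, 7.69 and 7.92 with vehicle and at 8.26, 8.76, 8.76 and 8.71 with FGF23. Its rise of 0.77 (1.70-fold, adjusted p = 0.047) was smallest on FGF23 replicate 1. Junb, an AP-1 subunit, was at 6.03, 5.66, 5.86 and 5.43 with vehicle and between 6.41 and 6.53 on all 4 treated arrays, a rise of 0.73 (adjusted p = 0.047).

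Other factors of these families were not called. Fos, the partner of JUN proteins in AP-1, was at 5.49, 5.76, 5.74 and 5.33 with vehicle and at 5.93, 6.08, 6.25 and 6.25 with FGF23. Its groups did not overlap, but the difference of 0.55 had an adjusted p of 0.0998. Egr2 had a difference of 0.34 (adjusted p = 0.252), with vehicle arrays at 5.04 to 5.34 and FGF23 arrays at 5.47 to 5.69, and Egr3 one of 0.27 (adjusted p = 0.296, and 0.105 without FGF23 replicates 1 and 2) with overlapping groups. Of other members, named after their values were seen, the AP-1 gene Fosl2 and the BMP target Id1 differed by 0.45 and 0.51 and were separated upward. Jun (0.17), the orphan receptor gene Nr4a1 (0.19) and Fosb (-0.045) overlapped between groups. In all, 3 of 29 measured members were called higher and 0 were called lower. Of the 29, 26 had a positive difference and 10 were separated upward, as were 4.09% of all genes. The median of the list was 0.245, against 0.0375 over all genes. This list and those below were chosen with earlier results of these data known, so their counts and medians are descriptions only. Its mean over members was 6.67 to 6.83 on the vehicle arrays and 7.06 to 7.14 on the FGF23 arrays. The list median lay between 0.172 and 0.314 under the other scalings and without FGF23 replicates 1 and 2.

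Early genes outside the transcription factors gave 3 more calls. Ier2, an immediate early gene whose protein is nuclear, was at 5.99, 5.93, 6.02 and 5.76 with vehicle and at 6.94, 6.59, 7.16 and 6.90 with FGF23. That is a rise of 0.97 (1.96-fold, SE 0.106, adjusted p = 0.00105). Zfp36 encodes tristetraprolin, which binds AU-rich elements in mRNAs of cytokines and early genes and speeds their decay. It was at 7.04, 6.62, 6.69 and 6.85 with vehicle and at 7.93, 7.54, 8.07 and 8.26 with FGF23, a 2.22-fold rise (log2 1.15, SE 0.160, adjusted p = 0.0127). Sertad1, which codes for a regulator of a cell cycle kinase, had the tightest groups of the 3. Its vehicle arrays lay at 6.61 to 6.77 and its FGF23 arrays at 7.19 to 7.38, and the rise was 0.59 (adjusted p = 0.0354).

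The same list also held members with large but scattered differences. Plk3, a stress-responsive polo-like kinase named here after its values were seen, was at 8.02, 6.38, 6.01 and 6.92 with vehicle and at 9.15, 8.74, 7.94 and 8.33 with FGF23. Its difference of 1.71 was exceeded only by that of Egr1 within these 2 lists of early genes, but vehicle replicate 1 lay above FGF23 replicate 3 and the adjusted p was 0.205. Errfi1, a feedback inhibitor of the EGF receptor, was separated upward at 11.37 to 11.65 and 11.89 to 12.10 (difference 0.50, adjusted p = 0.241). Ier3, another immediate early gene, differed by 0.05, with an adjusted p of 0.916. Of the 31 members 3 were called higher and 0 lower, and 27 had a positive difference. Separated upward were 10 of them and 4.09% of all genes. The list median was 0.273 and its array means ran from 7.60 to 7.79 with vehicle and from 7.94 to 8.01 with FGF23. Under the other scalings and without FGF23 replicates 1 and 2 the median lay between 0.198 and 0.324.

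Hbegf was the called gene with the second largest rise. It codes for a membrane-anchored ligand of the EGF receptor that proteases release from the cell surface. Its values were 7.48, 7.23, 7.41 and 7.10 with vehicle and 8.29, 8.79, 9.41 and 9.25 with FGF23. The rise was 1.63 (3.10-fold, SE 0.188, 95% interval 1.23 to 2.03, adjusted p = 0.00153). Both FGF23 arrays of low spread lay below the other 2, and without them the rise was 2.02. No other member of the EGF list was called. Among ligands, Epgn differed by 0.26 (adjusted p = 0.282) and Tgfa by 0.21 (adjusted p = 0.307), and by 0.13 and 0.105 without FGF23 replicates 1 and 2. Egfr, the receptor, differed by -0.14 (adjusted p = 0.439), with vehicle at 9.04 to 9.13 and FGF23 at 8.87 to 9.0, separated downward. Of the 14 members of the list 1 was called higher, 0 were called lower and 5 had a positive difference. The list median was -0.095, and -0.0112 without FGF23 replicates 1 and 2.

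Phosphatases that switch off MAP kinases formed the list with the highest median. Dusp6 dephosphorylates ERK in the cytoplasm and is a standard readout of FGF receptor activity. It was at 8.93, 8.70, 8.79 and 8.91 with vehicle and at 9.98, 10.21, 10.04 and 10.20 with FGF23. The groups were tight and more than 1 log2 unit apart, with a 2.42-fold rise (log2 1.27, SE 0.0838, 95% interval 1.10 to 1.45, adjusted p = 1.6e-06). Dusp4, a nuclear ERK and JNK phosphatase, was at 6.12, 6.24, 6.19 and 6.65 with vehicle and at 7.05, 7.32, 7.16 and 7.30 with FGF23, a rise of 0.91 (1.88-fold, adjusted p = 0.047). Dusp5, a nuclear ERK phosphatase, was separated upward by 0.47 without passing (adjusted p = 0.185). Dusp1, which also acts on p38 and JNK, was at 8.83, 8.75, 8.42 and 9.24 with vehicle and at 10.43, 9.80, 9.22 and 9.01 with FGF23, so that its difference of 0.81 (adjusted p = 0.253) came from overlapping groups. The 2 highest Dusp1 values were those of the FGF23 arrays of low spread, and without these arrays the difference was 0.31. In all, 2 of 10 phosphatases were called higher, 0 lower, and 9 had a positive difference. Separated upward were 4 of the 10 and 4.09% of all genes. The median was 0.446, and it lay between 0.297 and 0.386 under the other scalings and without FGF23 replicates 1 and 2. Mean values over the 10 genes were 7.15 to 7.26 on vehicle arrays and 7.58 to 7.84 on FGF23 arrays.

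In the other arm of feedback, the Sprouty family, Spry4 rose. Sprouty proteins block the step from receptor tyrosine kinases to RAS. Spry4 was at 6.47, 6.42, 6.52 and 6.28 with vehicle and at 6.95, 6.86, 7.05 and 6.77 with FGF23, a rise of 0.49 (1.40-fold, adjusted p = 0.047) that passed in 2 of 25 alternatives. Spry2 was at 7.49, 7.42, 7.65 and 7.56 with vehicle and at 7.86, 8.25, 8.17 and 8.07 with FGF23. Its difference of 0.56 was larger than that of Spry4, but the adjusted p was 0.0998. The PEA3 group of ETS factors, which FGF receptors induce in developing organs, showed no call. Etv4 differed by 0.18 (adjusted p = 0.356) and Etv5 by 0.0075 (adjusted p = 0.979, 95% interval -0.227 to 0.242), a difference whose sign turned with centred arrays. Etv1, named after its values were seen, differed by -0.21, with 7.76 to 7.87 on vehicle and 7.5 to 7.79 on FGF23 arrays. Of 16 feedback inhibitors and PEA3 factors 1 was called higher, 0 lower, and 11 had a positive difference. The median was 0.0675, and -0.005 with each array centred on its own median.

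**Figure D2:**
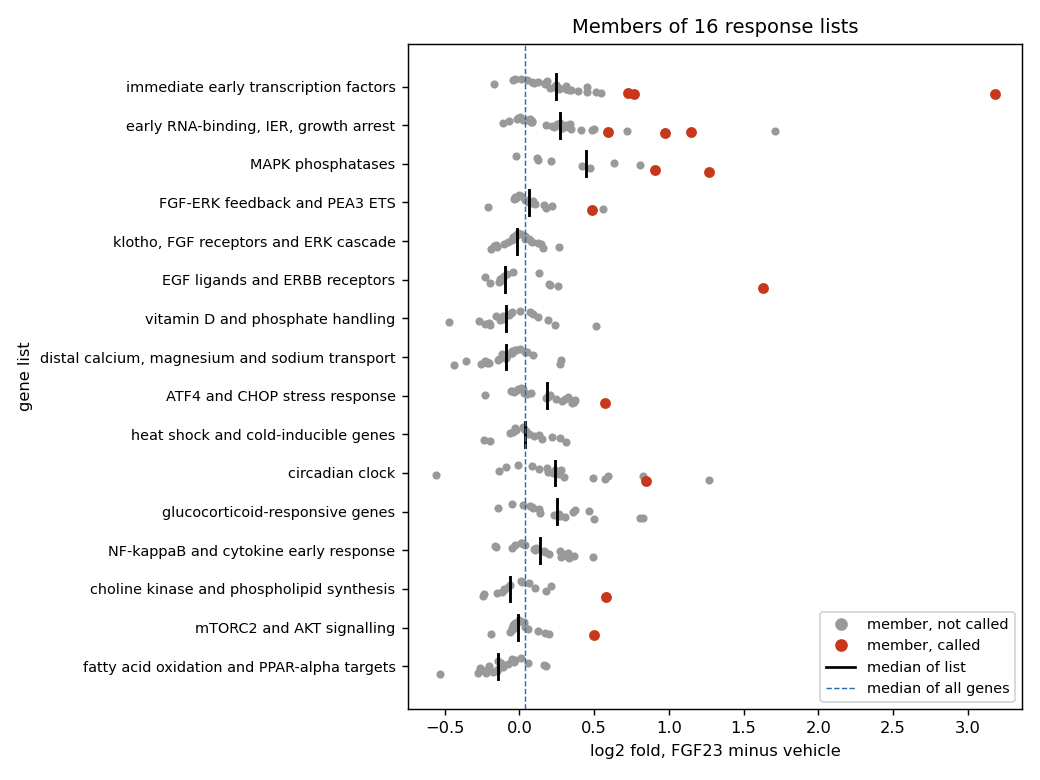
Log2 difference between FGF23 and vehicle (horizontal axis) for the measured members of 16 gene lists (vertical axis); red points are called members, grey points members not called, black bars list medians, and the dashed line is the median of all genes, 0.0375. The medians of the immediate early genes and MAPK phosphatases lie to the right of the dashed line, and those of the vitamin D, distal transport and fatty acid lists to its left.

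The other called genes belong to metabolism, stress and less studied loci. Chka, choline kinase alpha, carries out the first step of phosphatidylcholine synthesis from choline. It was at 8.01, 7.71, 7.97 and 7.91 with vehicle and at 8.35, 8.50, 8.53 and 8.55 with FGF23, a rise of 0.58 (adjusted p = 0.047). It was the only called gene among 15 members of the choline and phospholipid list, whose median was -0.065.

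Ddit3 encodes CHOP, a transcription factor of the stress response downstream of ATF4. It was at 6.66 to 6.83 with vehicle and at 7.44, 7.48, 7.28 and 7.11 with FGF23, a rise of 0.58 (adjusted p = 0.047). Bhlhe40, a repressor that responds to many stimuli and feeds into the circadian clock, was at 8.65, 8.62, 8.81 and 8.44 with vehicle and at 9.04, 9.44, 9.57 and 9.85 with FGF23. Its rise of 0.85 (1.80-fold, adjusted p = 0.047) was 1.08 without the FGF23 arrays of low spread. Prr5l, a partner of the mTORC2 kinase complex, rose by 0.50 from 5.51 to 5.81 with vehicle to 6.04 to 6.30 with FGF23 (adjusted p = 0.047). It was the only call among 19 members of the mTORC2 and AKT list, which had a median of -0.0075 that was 0.0443 after a further quantile normalization.

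The last 3 called genes are less well studied. Dnajc17, of the J-domain co-chaperone family, was at 6.89, 6.62, 6.92 and 6.91 with vehicle and at 7.35 to 7.49 with FGF23, a rise of 0.57 (adjusted p = 0.047). Rbm3os, a transcript opposite to the cold-inducible gene Rbm3, was at 4.13 to 4.35 with vehicle. With FGF23 it was at 4.97, 4.76, 4.92 and 4.56, a rise of 0.60 (adjusted p = 0.047). Its mean level of 4.53 lay in the lowest of 5 equal groups of genes, whose median difference was 0.0975. After a further quantile normalization the rise of Rbm3os was 0.49 (limma adjusted p = 0.168). Rbm3 itself differed by -0.03, with vehicle arrays at 10.1, 10.21, 9.82 and 10.09 and FGF23 arrays at 10.24, 10.16, 9.93 and 9.77. How the probes of these overlapping genes were assigned is not given in the sources used here, so their signals may not be separate. Gm11992, a predicted gene, was the only one that fell. It was at 8.02, 7.89, 7.82 and 8.16 with vehicle and at 7.37, 7.42, 7.45 and 7.35 with FGF23, and it fell by 0.57 in log2 units (limma, adjusted p = 0.047). The adjusted p of 0.047, close to the threshold, was shared by 11 of the 17 called genes.

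How firmly a call held differed widely between these genes. With each of the 12 arrays left out in turn, Egr1, Dusp6, Ier2 and Hbegf passed in 12 of 12 fits, with a highest adjusted p of 2.8e-07, 2.44e-05, 0.00716 and 0.0104. Zfp36 passed in 9, and lost its call without FGF23 replicate 3 (adjusted p = 0.0508), vehicle replicate 2 (0.0806) or vehicle replicate 3 (0.0687). Sertad1, Nab2, Junb and Dusp4 passed in 3 fits, Gm11992, Dnajc17, Rbm3os, Chka and Ddit3 in 2, Bhlhe40 in 1, and Spry4 and Prr5l in 0. No left-out array turned the direction of any of the 17. Their log2 differences then stayed at 3.06 to 3.31 for Egr1, 1.23 to 1.32 for Dusp6, 1.47 to 1.85 for Hbegf and 0.44 to 0.53 for Spry4. With array spread as a covariate 9 of the 17 passed, namely Egr1, Dusp6, Ier2, Hbegf, Zfp36, Sertad1, Nab2, Bhlhe40 and Chka. In that fit the adjusted p of Dusp4 was 0.479 and that of Junb 0.236.

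**Figure D3:**
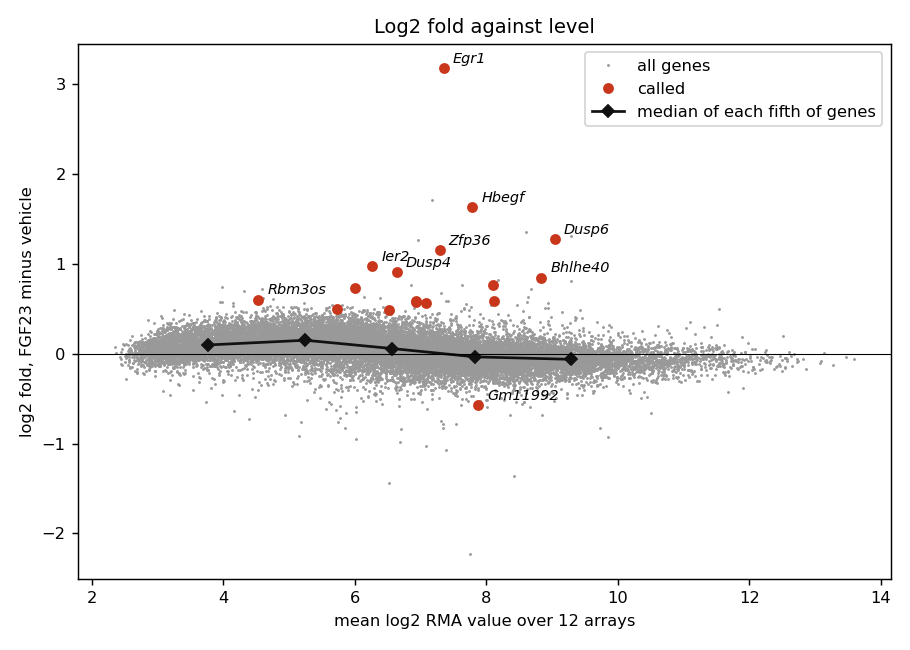
Log2 difference between FGF23 and vehicle (vertical axis) against the mean log2 value over 12 arrays (horizontal axis) for 19938 genes; red points are the 17 called genes, some labelled, and black diamonds the medians of 5 equal groups of genes by level. Called genes lie mostly at middle levels, 7 and 6 of them in the groups ranked 3 and 4, and the line of medians slopes down from 0.15 in the second group to -0.0625 in the highest.

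There were 7 further genes with an adjusted p between 0.05 and 0.1. By the rule for named genes, those next in line upward were Lce1b (0.49, adjusted p = 0.0842), Sox11 (0.44, 0.0846), Fos and Spry2, given above, the inhibitory leukocyte receptor gene Lair1 (0.46, 0.145) and the ubiquitin ligase gene Rnf186 (0.54, 0.145). Downward they were the organic anion transporter gene Slco1a4 (-0.52, 0.0842), the peroxisomal thioesterase gene Acot3 (-0.53, 0.0846), Tmem140 (-0.69, 0.114, and -0.45 without FGF23 replicates 1 and 2), Get1 (-0.37, 0.116), the RNA-editing cofactor gene A1cf (-0.41, 0.12) and the phosphatase inhibitor gene Arpp19 (-0.45, 0.185). Acot3 was at 7.95, 8.26, 8.13 and 8.46 with vehicle and at 7.73, 7.62, 7.70 and 7.63 with FGF23, a separation carried by a narrow treated group. For Arpp19 the FGF23 arrays of low spread were lowest, at 8.83 and 8.70 against 9.17 and 9.10, and the difference was -0.27 without them. With no adjustment, 2072 of the 19938 genes were higher and 991 lower at p below 0.05 (limma). The unadjusted counts of single lists below are to be read against these. At least 2-fold differences at any p were found in 13 genes, of which 4 were called.

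The genes of the receptors that FGF23 uses were not called. Kl, the gene of klotho, was at 10.67, 10.45, 10.74 and 10.58 with vehicle and at 10.45, 10.54, 10.61 and 10.44 with FGF23. The difference was -0.10 (95% interval -0.277 to 0.0771, adjusted p = 0.551). Klb, which encodes the related co-receptor of endocrine FGFs in liver and fat, differed by 0.27 (adjusted p = 0.425). The 4 FGF receptor genes differed by 0.035 (Fgfr1), -0.15 (Fgfr2), 0.15 (Fgfr3) and 0.07 (Fgfr4), with overlapping groups and adjusted p of 0.884, 0.39, 0.538 and 0.737. Of these, Fgfr1 and Fgfr4 had a negative sign with arrays centred on their median. Without FGF23 replicates 1 and 2 the differences were 0.03 for Klb, -0.045 for Fgfr2, 0.35 for Fgfr3 and 0.135 for Fgfr4. Across the list of klotho genes, FGF receptors and the ERK cascade 0 of 22 were called by limma, and 1 had an unadjusted p below 0.05. That gene was Rps6ka3, an ERK-activated kinase, at 9.23 to 9.33 with vehicle and 8.88 to 9.20 with FGF23 (difference -0.19, adjusted p = 0.317, and -0.0825 without the same 2 arrays). The list median was -0.015, and it was positive with a further quantile normalization (0.0244), array spread as a covariate (0.0426) or without FGF23 replicates 1 and 2 (0.0325).

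The genes by which FGF23 is known to act on phosphate and vitamin D were not called at 1 hour. Cyp27b1, which makes active vitamin D, was at 6.97, 6.70, 7.08 and 6.26 with vehicle and at 6.38, 5.73, 6.38 and 6.64 with FGF23. The groups overlapped, and the 95% interval of the difference of -0.47 ran from -0.988 to 0.048 (adjusted p = 0.362), an interval that includes no difference as well as a fall close to its lower end. The difference was -0.24 without FGF23 replicates 1 and 2 and -0.14 in the fit with spread as covariate. The phosphate transporter gene Slc34a1 had a much narrower interval, -0.204 to 0.0943 around -0.055 (0.04 with arrays scaled to a common standard deviation), and its wild-type arrays stayed between 12.85 and 13.02. Slc34a3 differed by -0.16 (interval -0.467 to 0.152; -0.415 without FGF23 replicates 1 and 2 and -0.44 with the covariate), with FGF23 replicates 1 and 2 at 9.71 and 9.67 and replicates 3 and 4 at 9.13 and 9.22. Slc20a1, a ubiquitous phosphate transporter gene, was separated upward at 8.47 to 8.94 and 9.10 to 9.25 (difference 0.51, adjusted p = 0.241), while Slc20a2 differed by 0.0025, with a sign that turned with centred arrays. Of the 20 genes of this list limma called 0, and 0 were called in any of the 25 alternatives. At an unadjusted p below 0.05, 2 were higher and 1 lower, against 2072 and 991 of all 19938 genes. The median was -0.0887 and 7 were positive. Without FGF23 replicates 1 and 2 the list median was -0.0537, with 8 positive.

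Distal tubule transport genes were not called either. Calb1, the calcium buffer calbindin of the distal tubule, was at 10.46, 10.06, 10.20 and 10.48 with vehicle and at 9.79, 9.52, 10.21 and 9.94 with FGF23. The difference of -0.44 (95% interval -0.719 to -0.151) had an adjusted p of 0.241, FGF23 replicate 3 lay among the vehicle arrays, and without FGF23 replicates 1 and 2 it was -0.23. Trpv5, the apical calcium channel gene, differed by -0.20 (adjusted p = 0.298, and -0.115 without these arrays) and Slc12a3, whose product reabsorbs sodium chloride in the distal convoluted tubule, by -0.14 (adjusted p = 0.449, and -0.03 without them). Wnk4, a kinase gene that controls that cotransporter, differed by 0.27 (adjusted p = 0.253). Limma called 0 of 28 members, and 22 had a negative difference with a median of -0.0912. Without FGF23 replicates 1 and 2 the list median was -0.0187, with 13 of 28 positive, and with spread as covariate it was -0.028. All genes of the highest of 5 equal groups by level were positive in 27.3%, with a median of -0.0625. At an unadjusted p below 0.05, 1 was higher and 4 were lower, against 2072 and 991 of all 19938 genes.

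Several lists of stress, clock and inflammatory genes leaned upward with few calls. Of 24 ATF4 and CHOP genes 1 was called (Ddit3), 18 had a positive difference and the median was 0.185. Xbp1, a factor of the unfolded protein response, was separated at 9.41 to 9.77 and 9.94 to 10.06 (adjusted p = 0.241). Atf4 itself differed by 0.08, with a vehicle mean of 7.713 and FGF23 arrays at 8.04, 7.92, 7.57 and 7.63. Without FGF23 replicates 1 and 2, the 2 arrays with the highest list means (8.13 and 8.12 against 7.89 and 7.80), the median fell to 0.01. Heat shock and cold-inducible genes gave 0 calls by limma among 16, 0 at an unadjusted p below 0.05, and a median of 0.0375, which was -0.035 with centred arrays and -0.0362 without FGF23 replicates 1 and 2.

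Of 19 clock genes 1 was called (Bhlhe40), 15 had a positive difference and the median was 0.24. The array means of this list, 7.78 to 7.91 with vehicle and 8.04 to 8.23 with FGF23, did not overlap. Ciart, a repressor of the clock activators, was at 6.00, 5.84, 5.60 and 6.40 with vehicle and at 7.97, 7.73, 6.40 and 6.81 with FGF23. FGF23 replicate 3 thus equalled vehicle replicate 4, and the difference of 1.27 had an adjusted p of 0.241 and was 0.645 without FGF23 replicates 1 and 2. Per1 was at 8.29, 7.36, 7.42 and 7.87 with vehicle and at 8.75, 8.67, 8.26 and 8.56 with FGF23 (difference 0.83, adjusted p = 0.265). Arntl, the activator gene that oscillates opposite to the Per genes and is named after its values were seen, differed by -0.56 (adjusted p = 0.273). The KL null arrays, which received no FGF23, had list means of 7.885, 8.181, 8.305 and 8.287. Ciart differed there from wild-type vehicle by 1.74 (limma adjusted p = 0.00651) and Per1 by 0.50 (0.379), and Arntl was at 5.59 to 6.19. Bhlhe40 went the other way in KL null, by -0.22 (0.425). The hour of day at which the mice were killed is not given in the sources used here, and its part in these values was not tested.

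Glucocorticoid-responsive genes gave 0 calls by limma among 18 and 4 higher at an unadjusted p below 0.05, with 16 positive and a median of 0.25. Of all 19938 genes, 2072 were higher and 991 lower at that unadjusted p. The list means were 8.66 and 8.69 on FGF23 replicates 1 and 2, 8.14 and 8.11 on replicates 3 and 4, and 7.89 to 8.28 with vehicle, and the median was -0.0138 without replicates 1 and 2. The NF-kappaB and cytokine list gave 0 calls by limma among 22, 6 higher at an unadjusted p below 0.05 and a median of 0.14. Its members Nfkbiz (0.33, adjusted p = 0.241) and Ccl7 (0.28, adjusted p = 0.263) were separated upward, and Tnf (0.50, adjusted p = 0.253) overlapped. Without FGF23 replicates 1 and 2 Ccl7 differed by 0.14 and Tnf by 0.235. Fatty acid oxidation and PPAR-alpha targets leaned the other way, with 19 of 23 negative, a median of -0.14, 0 calls by limma and 3 lower at an unadjusted p below 0.05. Of its members 4 were separated downward, among them Acot3, Acot4 (-0.23) and the fatty acid hydroxylase gene Cyp4a10 (-0.28). Over all genes 2.92% were separated downward. In the highest of 5 equal groups by level, where 27.3% of genes were positive, 273 of 3988 were.

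Markers of the cell types that a kidney sample can hold were measured beside these genes. Limma called 0 of 143 marker entries over 14 lists, with 7 higher and 13 lower by unadjusted p (below 0.05). Of all 19938 genes, 2072 were higher and 991 lower by that measure. Proximal tubule markers were positive in 3 of 19, with a median of -0.135 and array means of 11.60 to 11.77 with vehicle and 11.52 to 11.58 with FGF23. Intercalated cell markers were positive in 2 of 10, with a median of -0.106 and array means of 8.682 to 8.799 with vehicle and 8.512 to 8.677 with FGF23. In both lists the FGF23 arrays lay lower without overlap, by narrow gaps. The intercalated median was -0.0618 after a further quantile normalization, with 4 of 10 positive. Medians were negative for podocyte (-0.126), distal convoluted tubule (-0.107), thick ascending limb (-0.0275), principal cell (-0.055), mesangial (-0.12), leukocyte (-0.122) and fibroblast (-0.151) markers. They were positive for endothelial (0.145), adrenal (0.18), pancreatic (0.133), erythroid (0.095) and adipocyte (0.0575) markers. The leukocyte and fibroblast medians turned positive without FGF23 replicates 1 and 2 (0.107 and 0.0213), and the covariate fit gave a pancreatic median of -0.0974 and an erythroid one of -0.0248. The adrenal median was 0.0727 after quantile normalization, 0.0475 with scaled arrays, 0.0408 with the covariate and 0.075 without these 2 arrays, and the proximal tubule median was -0.0583 with scaled arrays, where 8 of 19 were positive. The mesangial median was -0.0212 and the principal cell median 0.00424 with the covariate, and the endothelial median was 0.0725 with centred arrays. The thick ascending limb median was 0.0351 and the adipocyte median -0.0271 after a further quantile normalization. Adrenal markers, which would show adrenal tissue left on the kidney, were at means of 4.87, 4.86, 4.66 and 4.67 with FGF23 and 4.53 to 4.71 with vehicle. All genes of the lowest and the next of 5 equal groups by level had medians of 0.0975 and 0.15. Those of the highest group, at levels from 8.46 to 13.6, had a median of -0.0625, with 27.3% positive. The group below it had a median of -0.035. The part of these shifts in the called genes was not tested.

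The KL null arrays show where the called genes stand in kidneys labelled KL null. Kl itself still gave a signal there, at 9.66, 9.76, 9.66 and 9.80, where the median level of all genes was 6.566. That was lower than with wild-type vehicle (difference -0.89, limma adjusted p = 1.75e-05). Klotho protein was not measured. The wild-type vehicle arrays serve both comparisons, so the values are only set side by side. Of the 17 genes, 2 also passed between KL null and wild-type vehicle, where 8.01% of all genes did. Dusp6 was at 8.28, 8.18, 8.14 and 8.19 in KL null, below all vehicle arrays (difference -0.64, adjusted p = 0.000389), so it was highest after FGF23 and lowest in KL null. Rbm3os was at a mean of 4.59 ± 0.14 (SD, n = 4) in KL null, higher than with vehicle (difference 0.39, adjusted p = 0.0295). Egr1 was at 6.71, 6.54, 6.59 and 6.41 in KL null, with each array above all vehicle arrays but a difference of only 0.40 (adjusted p = 0.106). Hbegf (-0.18), Zfp36 (0.32), Ier2 (0.05), Junb (0.03) and Spry4 (-0.21) did not pass in KL null, and Gm11992 was at 8.12 to 8.43 there, above its FGF23 values of 7.35 to 7.45. Genotype goes together with the strain label, which the protocol's mention of littermates leaves unsettled, and these cannot be told apart.

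The spread of each array was on average lower after FGF23, by a difference that did not pass a test of 4 against 4 arrays. The standard deviation of log2 values was 2.204 ± 0.0432 over the FGF23 arrays and 2.259 ± 0.0208 over the vehicle arrays (SD, n = 4). The difference of -0.0553 had a two-sided exact permutation p of 0.0857, where 0.0286 is the smallest that this design allows. The interquartile range gave -0.15 (exact permutation p = 0.114). On an array of smaller spread, values lie closer to the middle of the array. The median difference was 0.0975, 0.15 and 0.0575 in the 3 lower of 5 equal groups of genes by level and -0.035 and -0.0625 in the 2 upper ones. In the group ranked 2 from the lowest, FGF23 replicates 1 and 2 had medians of 0.245 and 0.248 above the vehicle mean, against 0.035 and 0.08 for replicates 3 and 4. Over all genes 58.7% had a positive difference.

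**Figure D4:**
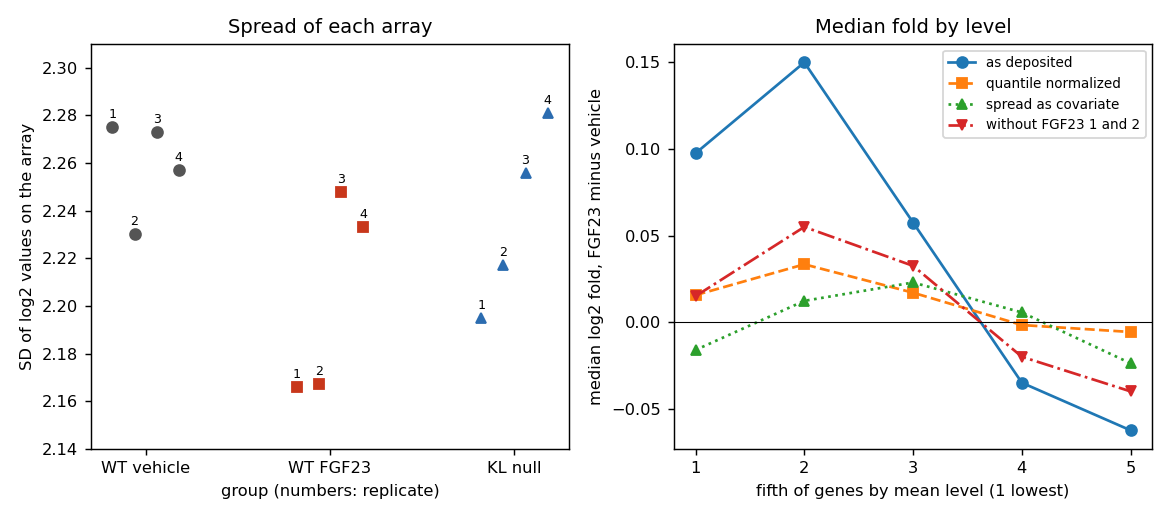
Left, standard deviation of log2 values on each of the 12 arrays (vertical axis) by group, numbered by replicate; right, median log2 difference between FGF23 and vehicle (vertical axis) in 5 equal groups of genes by mean level (horizontal axis, 1 lowest) under 4 settings. FGF23 replicates 1 and 2 have the lowest spread, 2.166 and 2.167, and the slope from 0.15 to -0.0625 in the deposited values is flatter after quantile normalization, with spread as a covariate, or without these 2 arrays.

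The leading calls were as large without the FGF23 arrays of low spread. With FGF23 replicates 1 and 2 left out, the difference was 3.47 for Egr1, 1.29 for Dusp6, 2.02 for Hbegf, 1.36 for Zfp36, 1.11 for Ier2 and 1.08 for Bhlhe40, each at or above its value on all arrays. It was smaller for Ddit3 (0.44 against 0.58), Rbm3os (0.54 against 0.60) and Sertad1 (0.55 against 0.59). The median over all genes was then 0.005.

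Some genes varied widely among arrays of the same group. Chosen after the values were seen as those with the widest standard deviation over the 8 wild-type arrays, the first 8 were Havcr1, Klk1b22, Ifi44l, Serpina6, Egr1, Sec14l3, Ccl28 and Slc22a26, and Egr1 was the only one of these 8 whose FGF23 and vehicle arrays did not overlap. Havcr1, which encodes the injury marker KIM-1, was at 10.0 on vehicle replicate 1 and 9.87 on FGF23 replicate 4, and at 4.59 to 5.66 on the other 6 arrays. Ifi44l, an interferon-stimulated gene, was at 5.16, 4.92 and 5.29 on vehicle replicate 4 and FGF23 replicates 1 and 2, and at 8.01 to 8.68 on the remaining 5 wild-type arrays. Serpina6, the gene of corticosteroid-binding globulin, was lowest of the wild-type arrays on the same 3, at 6.25, 6.03 and 6.08, against 7.64 to 10.13 on the other 5. Klk1b22, a kallikrein gene, was at 9.45, 9.50, 6.2 and 9.81 with vehicle and at 5.29, 5.62, 9.37 and 5.74 with FGF23.

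**Figure D5:**
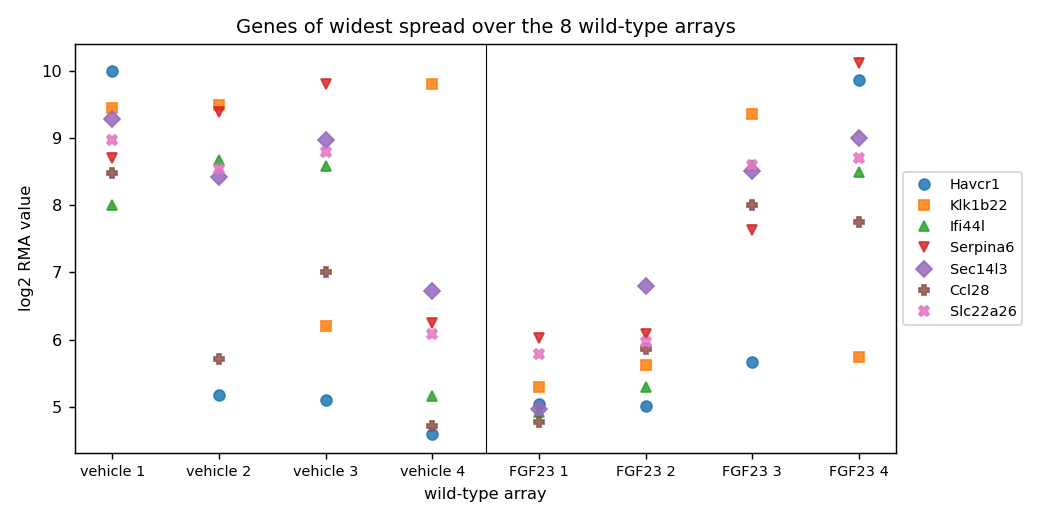
Log2 RMA value (vertical axis) of 7 genes with a wide spread, on each of the 8 wild-type arrays (horizontal axis), with 1 symbol per gene and vehicle left of the line. Vehicle replicate 4 shares low values of Ifi44l, Serpina6, Sec14l3 and Slc22a26 with FGF23 replicates 1 and 2, and Havcr1 is high on 1 array of each group.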

How the data were processed

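The deposited table holds log2 expression values per probe set, which the authors summarised by RMA; the submitters' processing notes name Partek 6.2. Background and probe-level settings are not given in the sources used here, and scanner files were not used, so no probe set was tested against its background. The table has 28853 probe sets, of which 21789 have 1 gene symbol in the platform annotation, 1621 several and 5443 none. Genes were named from the first kind only, and each of the resulting 19938 genes is represented by the probe set with the highest mean over 12 arrays. None of the 17 called genes is among the 999 with several probe sets. The probe sets without exactly 1 symbol were also tested, and 0 of 7064 were called when limma was run on all probe sets, which called 5.

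The FGF23 and vehicle groups were compared by the two-sided moderated test of limma 3.58.1 (lmFit, then eBayes; R 4.3.3). The fit had 3 group means over 12 arrays and 9 residual degrees of freedom, and p-values were adjusted by Benjamini and Hochberg over all genes. The same fit was also run on simulated data with independent normal noise, which did not carry the differences in array spread. Array spread was compared with an exact permutation test. Named are the called genes, the 6 not called with the smallest p in each direction (leaving aside Gm, Rik and LOC loci, small RNAs, immunoglobulin segments, and olfactory and vomeronasal receptors), a set of receptor, feedback and transport genes, and the 3 members of smallest p of each of 16 gene lists. Other genes are named after their values were seen. The comparison, the members and the gene lists were chosen with earlier results of these data known. Alternatives were other normalizations, array spread as a covariate, array weights, other moderation, other use of probe sets, the wild-type arrays alone, a filter on dim genes, the replicate number as a block, and each array left out in turn. Summaries used pandas 2.3.3 and SciPy 1.17.1 under Python 3.11.15, and plots matplotlib 3.10.9.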

Additional observations from a re-analysis of the deposited data

Results flagged for a closer look

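In groups of 4 arrays, some single values lay far from the other 3 by Dixon's criterion at 95%. Of 169 groups tested for the named genes this held for 13, where chance gives about 1 in 20, or 8.4. Among called genes, Nab2 was at 8.26 on FGF23 replicate 1 (8.71 to 8.76 on the others), at 7.69 on vehicle replicate 3 (7.89 to 7.93) and at 7.53 on KL null replicate 2 (7.91 to 7.98). Dnajc17 was at 6.62 on vehicle replicate 2 (6.89 to 6.92), and Rbm3os at 4.80 on KL null replicate 2 (4.50 to 4.55). Vehicle replicate 4 stood above the other vehicle arrays for A1cf (9.98 against 9.90 to 9.91), Arpp19 (9.47 against 9.37 to 9.38) and Slc20a2 (8.98 against 8.77 to 8.79). Vehicle replicate 1 stood apart for Epgn (3.97 against 4.17 to 4.21) and Foxo3 (9.90 against 9.40 to 9.47), and vehicle replicate 3 for Egr2 (5.04 against 5.32 to 5.34). Among FGF23 arrays, Fgfr4 was at 8.59 on replicate 4 (8.25 to 8.30) and Napepld at 7.01 on replicate 3 (6.72 to 6.75).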

How the results depend on the processing

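The 17 calls (16 higher, 1 lower) were 10 and 0 after a further quantile normalization, 5 and 1 with arrays centred on their median (6 in all), 6 and 1 with arrays also scaled (7 in all), 11 and 0 with array spread as a covariate, and 8 and 0 without both FGF23 arrays of low spread. They were 7 and 0 on the 8 wild-type arrays alone, 2 and 0 without moderation, 5 and 0 over all probe sets, and 15 and 4 with trended and robust moderation. With each array left out in turn, 4 to 14 genes were called, 4 to 13 higher and 0 to 1 lower. Early transcription factors called were 3, and 1 with centred or scaled arrays, on wild-type arrays alone, without moderation or over all probe sets (1 to 3 with an array left out). The other early genes were 3, and 0 without moderation (1 to 3). MAPK phosphatases were 2, and 1 in all these settings and under quantile normalization, the covariate or without the low-spread arrays, except that 2 were called on wild-type arrays alone (1 to 2). Feedback genes called were 1 (Spry4), and 0 in each setting so far named except trended moderation, where the 1 called was Spry2 and not Spry4. They were also 0 with array weights or with any array left out. Spry4 passed only with dim genes removed or probe sets averaged. The 2 calls in KL null were 1 after quantile normalization. The difference in array spread lay between -0.0701 and -0.0428 with an array left out.

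Replicate numbers did not pair the arrays: same-numbered FGF23 and vehicle arrays deviated together with correlations of -0.216, 0.191, 0.112 and -0.159. With the replicate number as a block 6 genes were called, all higher, with 1 MAPK phosphatase and 0 feedback genes.

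Among the 75 genes named by the rule, signs turned in 7, none of them called. Genes named after their values were seen were not counted here. With centred arrays they were -0.0375 for Fgfr1, -0.005 for Fgfr4, -0.065 for Etv5 and -0.07 for Slc20a2. With scaled arrays they were -0.0386 for Etv5, 0.0392 for Slc34a1 and -0.00495 for Slc20a2. With the covariate they were -0.108 for Etv5, -0.0218 for Slc20a2 and 0.148 for Pik3r1, and without the low-spread arrays -0.0325, -0.0275 and 0.0925, with -0.025 for Foxo3. With single arrays left out the differences ran from -0.0075 to 0.0925 for Fgfr1, -0.0117 to 0.106 for Fgfr4, -0.0442 to 0.0683 for Etv5 and -0.0358 to 0.0517 for Slc20a2. The causes were not tested. Only 4 arrays per group and the missing test against background limit what dim genes can show.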

Other observations

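A few genes outside the 17 were called only under other settings, and are named here after their values were seen. Hes1, a Notch target and transcriptional repressor that growth factors can also induce, was at 7.96, 7.82, 8.11 and 7.65 with vehicle and at 8.06, 8.53, 9.0 and 9.11 with FGF23. Its difference was 0.79 (adjusted p = 0.208) on all arrays. It was 1.19 (adjusted p = 0.00401) with array spread as a covariate and 1.17 (adjusted p = 0.00551) without FGF23 replicates 1 and 2. Sik1, a salt-inducible kinase gene, was at 9.12 to 9.48 with vehicle and at 9.58, 9.75, 9.87 and 10.09 with FGF23, with a difference of 0.49 (adjusted p = 0.234) that was 0.71 (adjusted p = 0.0322) with the covariate.

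Another set depended on vehicle replicate 4. Cyp2c23, an arachidonic acid epoxygenase gene, was at 7.69, 7.87 and 7.66 on vehicle replicates 1 to 3 and at 10.79 on replicate 4, with FGF23 arrays at 9.43 to 10.11 and KL null arrays at 8.68 to 9.98. Cpn1, a carboxypeptidase subunit gene, was at 7.13 to 7.26 on the same 3 vehicle arrays, 9.82 on replicate 4 and 8.71 to 9.67 with FGF23. Gdpd3, a lysophospholipase gene, showed the mirror image, at 8.67 to 9.39, 7.57 and 6.82 to 7.58. Without vehicle replicate 4 these genes were called, with differences of 2.07 (adjusted p = 0.00532), 2.01 (adjusted p = 0.015) and -1.72 (adjusted p = 0.0196). With it the adjusted p was 0.286, 0.263 and 0.202. For these 3 genes the fourth vehicle array lay with or beyond the FGF23 arrays, although its Egr1 (6.06), Dusp6 (8.91) and Hbegf (7.10) were at vehicle levels. Ifi44l and Serpina6 also had low values on it, like those of FGF23 replicates 1 and 2. Whether this array matches its label in other respects was not tested.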
